A study of Mus musculus with 4 samples.

Results

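A set of 9 genes of vascular guidance was followed in blood endothelial cells (BECs) sorted from mouse ear dermis: the semaphorins *Sema3c*, *Sema3f*, *Sema3g*, *Sema6a* and *Sema7a*, the plexins *Plxnd1* and *Plxna2*, the netrin receptor gene *Unc5b* and the endothelial roundabout gene *Robo4*. They were listed by name, and all 9 were found among the 46517 genes counted. The cells were sorted as CD31+/CD45-/Lyve1- from the ears of wild-type female C57Bl/6 mice, adults of 12 to 26 weeks by the labels (the study's methods give the substrain C57BL/6 J and a younger range), and profiled by Smart-seq2, in which a well receives a single cell and no molecular identifiers mark its transcripts. There were 2 replicates of 2 plates (A and B) with 384 wells each. The labels name a pool of 6 mice, and whether the replicates are separate pools was not given, so the spread between them may be technical. No group was treated, and the comparison is that between BECs of arteries, capillaries and veins.

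Semaphorins are secreted or membrane-bound cues that act through plexins, and the secreted class 3 members mostly need a neuropilin as co-receptor. In vessels these cues steer sprouting and barrier function: PLXND1 receives class 3 semaphorins on endothelium, UNC5B is a receptor of the netrin family that marks tip cells and arteries, and ROBO4 is a roundabout receptor largely restricted to endothelium, whose extracellular part can bind UNC5B. SEMA6A is a transmembrane semaphorin that binds A-type plexins such as PLXNA2, and SEMA7A is anchored to the membrane and can also bind integrins.

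Of 1536 wells, 701 were kept as BECs, 338 of replicate 1 and 363 of replicate 2. In kept wells at least 2 of the 3 BEC genes *Pecam1*, *Cdh5* and *Kdr* had been read, and 5 genes of other cell types each lay under 100 CPM (read counts scaled to the same total of gene reads in each well). Clusters were built without the 9 genes and without other guidance genes and were named by markers. At the chosen resolution there were 68 artery-like wells (28 and 40 in replicates 1 and 2), 151 capillary-like wells (120 and 31) and 239 vein-like wells (122 and 117), while 243 wells (68 and 175) stayed unnamed. In the artery-like cluster all 11 artery markers passed the fold limit for naming, among them *Gja4*, *Gja5* and *Bmx*. The capillary-like cluster had 12 of 12 capillary markers higher and the vein-like cluster 11 of 13 vein markers. The artery-like cluster also had 4 of 7 fibroblast markers higher, and its leading genes included *Fmod*. Fibroblast markers summed to 807 and 377 CPM in the artery-like wells of the replicates, 332 and 227 CPM in the capillary-like wells and 508 and 33.4 CPM in vein-like wells, with a read of at least 6 of the 7 in every sum. Median reads per well lay between 94602 and 187922 in the 6 sets of class and replicate. Capillary-like wells of replicate 2 were the shallowest set and the richest in spike-in reads, with a mean share per well of 8.63%. No well name was shared between plates.

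Between artery-like and vein-like wells, *Sema3g* and *Unc5b* had the largest fitted differences among the 8 genes tested. The level of *Sema3g* was 22.5 times higher in artery-like than in vein-like wells of replicate 1 and 13.6 times higher in replicate 2. That of *Unc5b* was 9.64 and 59.5 times higher. The size of these differences depended on how the classes were drawn. With graph edges weighted by shared neighbours, the artery-like class grew from 68 to 272 wells. *Sema3g* was then at 27.5 and 52.6 CPM in artery-like wells against 4.80 and 12.6 CPM in vein-like wells of replicates 1 and 2. *Unc5b* was at 30.2 and 40.1 CPM in artery-like wells against 9.19 and 2.47 CPM in vein-like wells, and below the 85.4 and 108 CPM of capillary-like wells. With a limit of 300 CPM on the non-BEC genes, which gave 294 artery-like wells, *Sema3g* was at 38.0 and 43.3 CPM against 1.14 and 19.8 CPM in vein-like wells. The artery-like levels stayed above the vein-like levels of the same replicate in both of these settings. For the tests, reads were summed by class and replicate, and edgeR's quasi-likelihood fit to these 6 sums held a replicate block, with p-values adjusted over 15240 genes by Benjamini-Hochberg. *Sema3c* had too few reads to be tested. None of the other 8 genes (0 of 8) passed the threshold of 0.05 between artery-like and vein-like wells, where 0% of all genes did. At an unadjusted p under 0.05 there were 2 of 8, *Sema3g* and *Unc5b*, against 5.2% of all genes. Under DESeq2's Wald test these 2 genes passed after adjustment, against 2.04% of all genes. The classes were drawn from these same wells, so genes that covary with the clustering genes differ by construction. The tests therefore say only whether a difference repeats in both replicates.

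The start regions of *Sema3g* and *Unc5b*, the pair with the highest ratio of artery-like to vein-like levels among the genes tested, are shown beside that of *Robo4*, which had a high level in every class. The windows run from 250 bases before to 50 bases after the RefSeq start (GRCm38.p6), 5′ to 3′ on the strand of the gene. They lie at chr14:31217623-31217922 (plus strand), chr10:60831532-60831831 (minus strand) and chr9:37401722-37402021 (plus strand). Capitals mark matches, on either strand, to 4 short motifs. The core of ETS factor sites was searched as AGGAAG. For SOX factors the letters were ACAAT. For the Notch partner RBPJ they were TGGGAA. The search for a promoter box near the start used TATAAA.
Sema3g: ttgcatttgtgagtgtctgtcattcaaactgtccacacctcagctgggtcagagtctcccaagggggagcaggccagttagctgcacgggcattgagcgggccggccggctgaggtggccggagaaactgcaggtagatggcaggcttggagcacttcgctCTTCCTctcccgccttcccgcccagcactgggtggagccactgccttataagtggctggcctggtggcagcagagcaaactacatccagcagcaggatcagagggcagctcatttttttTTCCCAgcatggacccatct
Unc5b: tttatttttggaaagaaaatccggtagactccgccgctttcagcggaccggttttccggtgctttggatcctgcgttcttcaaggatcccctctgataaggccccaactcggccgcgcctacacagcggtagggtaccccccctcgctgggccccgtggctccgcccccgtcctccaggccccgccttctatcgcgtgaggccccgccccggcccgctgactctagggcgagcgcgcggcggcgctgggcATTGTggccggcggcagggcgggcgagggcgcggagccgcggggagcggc
Robo4: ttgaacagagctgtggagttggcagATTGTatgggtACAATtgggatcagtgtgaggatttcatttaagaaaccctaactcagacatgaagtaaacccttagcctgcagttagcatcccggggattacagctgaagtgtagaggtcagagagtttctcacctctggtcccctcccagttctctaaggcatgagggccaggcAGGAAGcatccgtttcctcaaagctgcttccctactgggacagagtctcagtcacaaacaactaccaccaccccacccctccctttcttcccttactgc
A window was found for 7 of the 9 genes. The *Sema3g* window held 1 ETS and 1 RBPJ match, that of *Unc5b* 1 SOX match at the start site, and that of *Robo4* 2 SOX matches and 1 ETS match, the latter 49 bases before the start. Over all 32851 windows, 35.4% held the ETS letters, 31% the SOX letters, 25.6% the RBPJ letters and 13.6% the TATA letters. Among the 7 windows these were 3, 2, 1 and 0. The *Unc5b* window had 69.7% G and C and that of *Robo4* 50.3%, against a median of 52.7%.

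**Figure D1:**
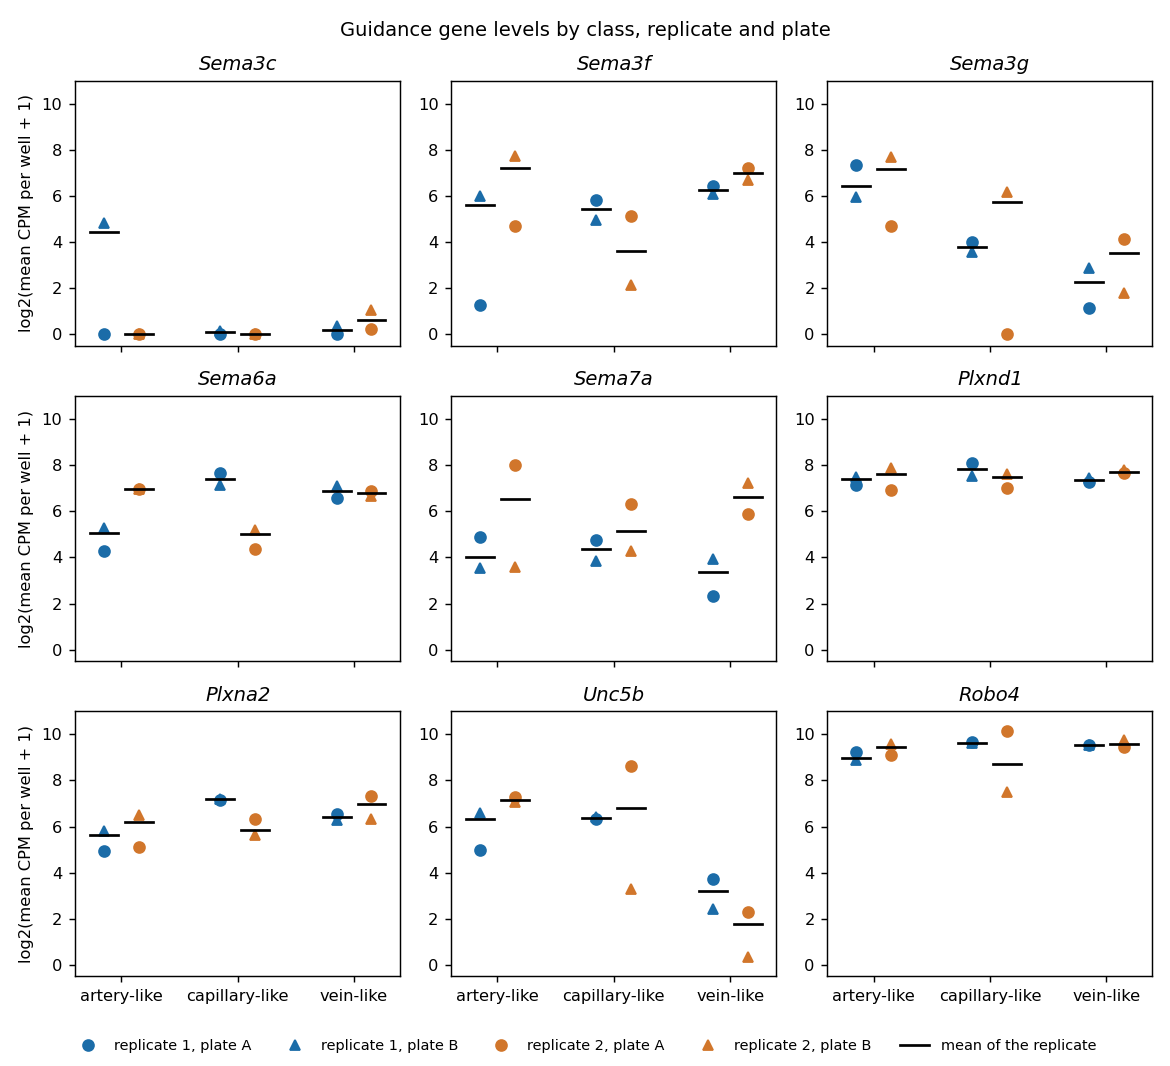
Mean CPM per well of each gene, as log2(mean CPM + 1) on the y axis, by class on the x axis; circles are plates A, triangles plates B, colours are replicates and black bars are the means of each replicate. In *Sema3g* and *Unc5b* the 4 plates of the vein-like wells lie below the 4 plates of the artery-like wells, whereas the 12 values of *Plxnd1* lie between 121 and 273 CPM.

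Among the secreted semaphorins, *Sema3g* (ENSMUSG00000021904, chromosome 14 from 31217860 to 31230352, plus strand) encodes a class 3 ligand known from arterial endothelium. Its mean level in artery-like wells was 163 CPM on plate A and 62.0 CPM on plate B of replicate 1, and 24.9 CPM (A) and 204 CPM (B) in replicate 2. Vein-like wells had 1.21 and 6.29 CPM on the plates of replicate 1, and 16.9 and 2.44 CPM in replicate 2. The lowest artery-like value was thus above the highest vein-like value. Capillary-like wells had 15.1 and 10.8 CPM in replicate 1, and 0 and 71.3 CPM in replicate 2, and overlapped both. The highest capillary-like level rested on 2 of 31 wells: without the highest well of the class, replicate 2 was at 11.1 CPM instead of 52.9 CPM. In the artery-like class the same step left 48.5 of 87.3 CPM in replicate 1 and 92.0 of 146 CPM in replicate 2, and in the vein-like class 1.404 of 3.88 CPM and 4.16 of 10.7 CPM.

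A read of *Sema3g* was found in 9 of 28 artery-like wells of replicate 1 (32.1%, exact 95% interval 15.9 to 52.4) and in 18 of 40 of replicate 2 (45.0%, 29.3 to 61.5). In vein-like wells it was found in 13 of 122 (10.7%, 5.80 to 17.5) and 12 of 117 (10.3%, 5.41 to 17.2), and in capillary-like wells in 15 of 120 (12.5%, 7.17 to 19.8) and 2 of 31 (6.45%, 0.791 to 21.4). These intervals cover counting error only. At least 100 CPM of *Sema3g* was held by 6 of 28 and 10 of 40 artery-like wells, 4 of 120 and 2 of 31 capillary-like wells, and 1 of 122 and 2 of 117 vein-like wells. Most artery-like wells had no read of the gene, so its class mean came from a minority of wells. After each well was thinned to 20000 reads, the artery-like shares were 25% and 33.3% and the vein-like shares 4.92% and 7.83%, with 0 and 4 artery-like and 0 and 2 vein-like wells left out as too shallow. The capillary-like shares were then 6.67% and 9.52%, with 0 and 10 wells left out. Mural wells, chosen by at least 300 CPM of *Pdgfrb* or *Kcnj8* and under 100 CPM of *Pecam1*, had a read in 0 of 8 (which allows up to 37.5%) and 0 of 38 wells (up to 7.89%), with median depths of 197462 and 170239 reads. Lymphatic wells, with at least 100 CPM of *Prox1*, held 3.75 and 0.683 CPM.

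In the sums, the log2 fold change of *Sema3g* between artery-like and vein-like wells was 4.84 ± 0.95 (standard error; edgeR quasi-likelihood test, unadjusted p = 0.00159, adjusted p = 0.892). It lay between 1.41 and 9.84 over 17 other settings and was above 0 in all 17. It came to 5.15 from replicate 1 and 3.99 from replicate 2 by themselves, and to 1.41 from the A plates. DESeq2's Wald test gave an adjusted p of 6.54e-05, the lowest over the settings, and no other tested setting gave less than 0.149. The capillary-like sums did not differ from the mean of the other classes beyond the error, with 0.51 ± 0.71. The part of the fibroblast markers, which were higher in the artery-like cluster, in the *Sema3g* difference was not tested.

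*Sema3f* (ENSMUSG00000034684, chromosome 9, minus strand), whose product repels endothelial and tumour cells through NRP2, had its lowest replicate means in capillary-like wells. The capillary-like levels were 42.5 and 11.2 CPM in replicates 1 and 2, against 48.1 and 150.3 CPM in artery-like wells and 77.0 and 129 CPM in vein-like wells. Single wells and the class definition changed this order. Without the highest well of each set, artery-like wells were at 23.9 and 75.3 CPM and capillary-like wells at 29.7 and 2.90 CPM. With classes from marker scores, replicate 2 had 77.5 CPM in artery-like and 86.1 CPM in capillary-like wells, and with the 300 CPM limit it had 102 CPM in capillary-like and 71.0 CPM in vein-like wells. By plate, capillary-like wells ranged from 3.37 to 56.0 CPM and lay below all vein-like plates, which ranged from 68.3 to 150.0 CPM. Artery-like wells overlapped both, from 1.43 CPM on plate A of replicate 1 to 211 CPM on plate B of replicate 2. It was read in 35.7% and 37.5% of artery-like, 30.8% and 22.6% of capillary-like and 51.6% and 41.0% of vein-like wells. Lymphatic wells held 106 and 103 CPM. Relative to the other classes, the fitted log2 fold change in capillary-like wells was -2.13 ± 1.27 (edgeR, unadjusted p = 0.138, adjusted p = 0.943). It was 0.0054 when the limit on non-BEC genes was 10 CPM, and the capillary-like sum of replicate 2 held only 9 reads. Of the 8 genes tested, *Sema3f* was the 1 whose capillary-like sums were both below the other 4 sums, as were those of 7.23% of all genes, and 0 of 8 had both above them, against 6%.

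*Sema3c* (ENSMUSG00000028780, chromosome 5, plus strand), a class 3 semaphorin with a known role in the outflow tract of the heart, was close to absent. A read was found in 2 of 28 artery-like wells of replicate 1 and in 0 of 40 of replicate 2, where up to 7.5% would be allowed. Capillary-like wells had a read in 1 of 120 and 0 of 31 wells (up to 9.68%), and vein-like wells in 2 of 122 and 4 of 117. The artery-like level of 20.7 CPM in replicate 1 came from 1 well with 576 CPM, and the other 27 wells averaged 0.124 CPM. Mural wells of replicate 2 were at 4.88 CPM, with a read in 3 of 38.

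The membrane-bound *Sema6a* (ENSMUSG00000019647, chromosome 18, minus strand) was present in all classes. Artery-like wells held 32.7 and 124 CPM in the replicates, while 168 and 31.2 CPM were found in capillary-like wells and 117 and 111 CPM in vein-like wells. The artery-like and capillary-like classes changed places between replicates, and the vein-like level stayed close. Over the 4 plates, artery-like wells lay between 18.2 and 124 CPM, capillary-like wells between 19.5 and 199.8 CPM and vein-like wells between 95.4 and 137 CPM. Kept wells that stayed unnamed held 291 and 263 CPM, above each named class of the same replicate. Without their highest well they were at 176 and 213 CPM. Lymphatic markers summed to 130 and 1840 CPM in these unnamed wells. Lymphatic wells held 141 and 543 CPM, the former below capillary-like wells of replicate 1 and the latter above each BEC class of replicate 2. Without its highest well the former was 53.8 CPM. Mural wells held 1.75 and 5.45 CPM. The log2 fold changes were -0.13 ± 0.95 between artery-like and vein-like wells and 0.03 ± 0.89 for capillary-like wells, so no difference exceeded the spread between replicates.

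*Sema7a* (ENSMUSG00000038264, chromosome 9, plus strand) was higher in replicate 2 than in replicate 1 in every class. It was at 15.1, 19.6 and 9.40 CPM in artery-like, capillary-like and vein-like wells of replicate 1 and at 90.6, 34.1 and 97.8 CPM in those of replicate 2. Single wells set the higher values: 1 artery-like well of replicate 2 held 2637 CPM and 1 vein-like well 5806 CPM, and without them the levels were 25.3 and 48.6 CPM. In capillary-like wells of replicate 2, 1 well held 622 CPM. Without the highest well, capillary-like wells were at 12.6 CPM in replicate 1 and 14.5 CPM in replicate 2. The shares of wells with a read ran from 20.0% (95% interval 13.3 to 28.3) in capillary-like wells of replicate 1 to 30.0% (16.6 to 46.5) in artery-like wells of replicate 2. After thinning they ran from 7.38% in vein-like to 21.4% in artery-like wells, both of replicate 1. Lymphatic and mural wells were at 0.518 to 1.36 CPM, below every BEC class. The log2 fold change between artery-like and vein-like wells was 0.20 ± 1.16.

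**Figure D2:**
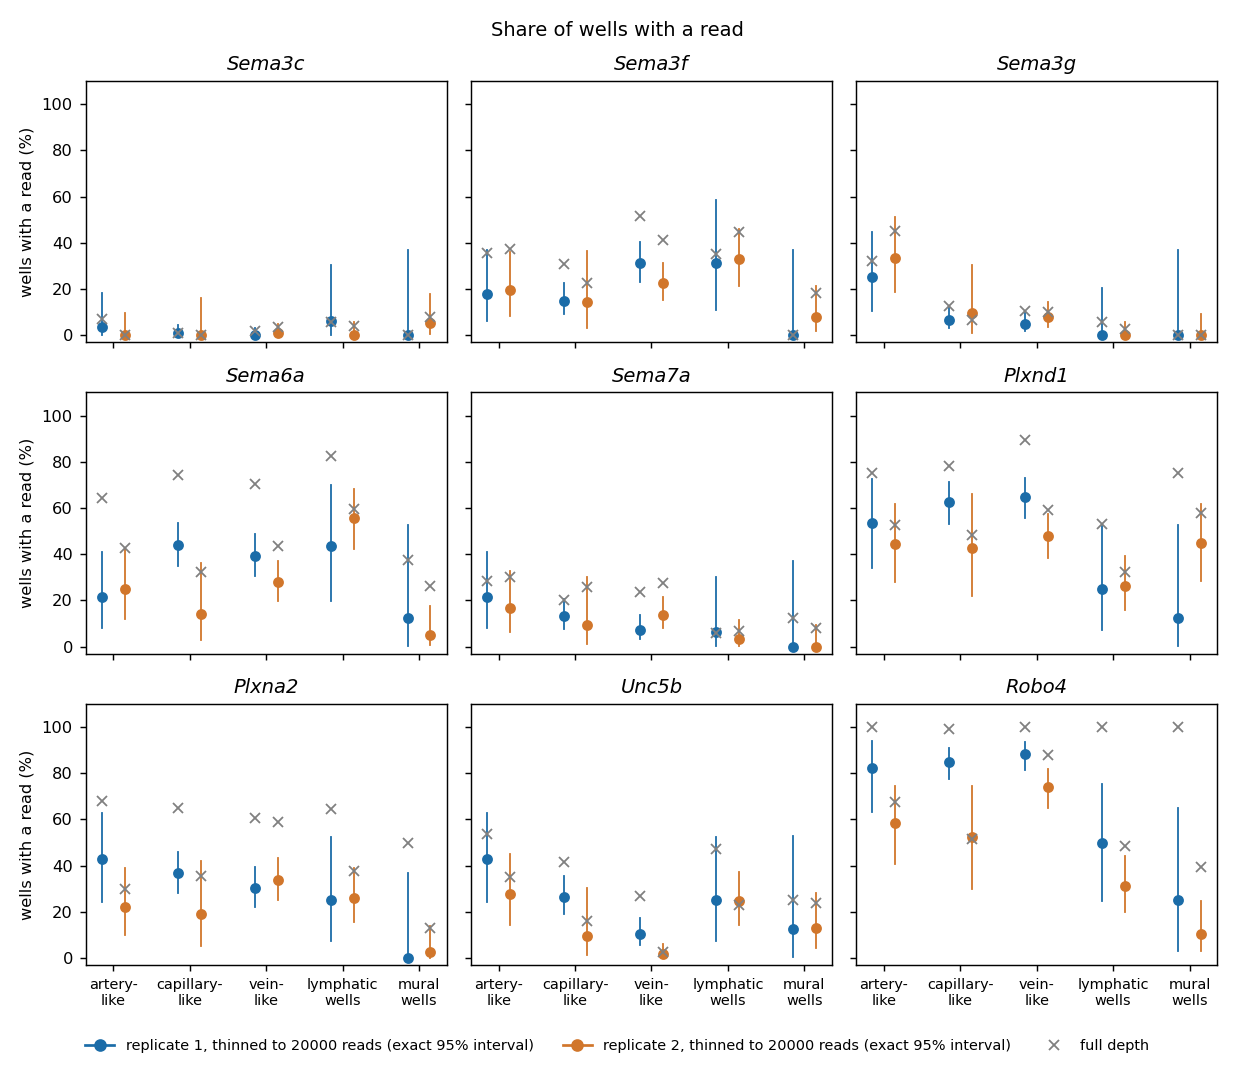
Percentage of wells with at least 1 read (y axis) in each class and in lymphatic and mural wells (x axis); coloured points with exact 95% intervals are wells thinned to 20000 reads, colours are replicates and grey crosses are full depth. The thinned share of *Sema3g* was 25% and 33.3% in artery-like wells and below 10% in the other 2 classes, and *Robo4* had the highest share in each BEC class.

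Turning to the receptors, *Unc5b* (ENSMUSG00000020099, chromosome 10 from 60762593 to 60831581, minus strand) was present in artery-like and capillary-like wells and low in vein-like wells. Artery-like wells had 30.3 CPM (A) and 94.4 CPM (B) on the plates of replicate 1, and 157 and 133 CPM on those of replicate 2. Vein-like wells had 12.2 and 4.43 CPM in replicate 1 and 3.94 and 0.258 CPM in replicate 2, each below the lowest artery-like value. Without the highest well of each set, artery-like wells were at 54.3 and 97.2 CPM and vein-like wells at 5.95 and 0.993 CPM. Capillary-like wells had 80.1 and 85.5 CPM on the plates of replicate 1, whereas replicate 2 was split between 398 CPM over the 8 wells of plate A and 8.79 CPM over 23 wells of plate B. The former value came from 1 well with 3186 CPM, without which capillary-like wells of replicate 2 were at 6.74 CPM instead of 109 CPM. The capillary-like level of *Unc5b* is therefore carried by replicate 1.

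A read of *Unc5b* was found in 15 of 28 (53.6%, exact 95% interval 33.9 to 72.5) and 14 of 40 (35.0%, 20.6 to 51.7) artery-like wells, in 50 of 120 (41.7%, 32.7 to 51.0) and 5 of 31 (16.1%, 5.45 to 33.7) capillary-like wells, and in 33 of 122 (27.0%, 19.4 to 35.8) and 3 of 117 (2.56%, 0.532 to 7.31) vein-like wells. In both replicates the order of the shares was artery-like, capillary-like, vein-like, though the intervals of neighbouring classes overlapped, and those of artery-like and vein-like wells were apart only in replicate 2. The order was the same after thinning, with 42.9%, 26.7% and 10.7% in replicate 1 and 27.8%, 9.52% and 1.74% in replicate 2. At least 100 CPM was held by 5 of 28 and 9 of 40 artery-like, 21 of 120 and 2 of 31 capillary-like, and 2 of 122 and 2 of 117 vein-like wells. Among vein-like wells with a read, the median was 10.7 CPM in replicate 1. Only 18 wells of replicate 1 passed a limit of 10 CPM on the non-BEC genes, against 229 of replicate 2. The part of stray reads in these shares was not tested. The gene is not particular to BECs, since lymphatic wells had 107 and 92.5 CPM and mural wells 116 and 46.1 CPM. Single wells carried much of these levels: without the highest well of each set, lymphatic wells were at 50.9 and 39.3 CPM and mural wells at 0.388 and 24.3 CPM. Markers of these cell types were present in each class: lymphatic markers summed to 82.6 and 85.9 CPM in artery-like, 67.4 and 385 CPM in capillary-like and 25.4 and 123 CPM in vein-like wells. Mural markers summed to 1462 and 436, 1516 and 323, and 965 and 417 CPM in the same order. All 10 mural markers had a read in each of these sums and at least 6 of the 7 lymphatic markers did, with *Reln* at 0 in artery-like wells of replicate 1. Their part in the *Unc5b* levels was not tested.

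For *Unc5b* the log2 fold change between artery-like and vein-like wells was 4.91 ± 1.30 (edgeR quasi-likelihood test, unadjusted p = 0.00754, adjusted p = 0.892). Over 17 other settings it lay between 2.93 and 8.61 and was above 0 in all, with 2.93 in replicate 1 alone and 6.94 in replicate 2 alone. DESeq2's Wald test gave an adjusted p of 0.00169, the lowest over the settings, and no other tested setting gave less than 0.28. Capillary-like wells lay 1.99 ± 0.87 above the other classes on the log2 scale (edgeR, unadjusted p = 0.0579, adjusted p = 0.943), a value that fell to 0.54 when the highest well of each set was left out. Of the 8 genes tested, 2 (*Sema3g* and *Unc5b*) had both artery-like sums above both vein-like sums, against 14.4% of all genes, and 1 (*Robo4*) had both below, against 24%. Both capillary-like sums were above both vein-like sums for 3 of 8, *Sema3g*, *Unc5b* and *Plxnd1*, against 13.8%. In *Plxnd1* this separation amounted to 238 and 253 CPM of the normalised sums against 157 and 232 CPM. In *Sema3g* it was 11.9 and 119 CPM against 2.43 and 11.4 CPM. Its capillary-like reads of replicate 2 came from 2 of 31 wells. For *Unc5b*, 1 well carried 94.0% of the capillary-like level of replicate 2. Without the highest well of each set, that level was 6.74 CPM, against 5.95 CPM in vein-like wells of replicate 1.

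**Figure D3:**
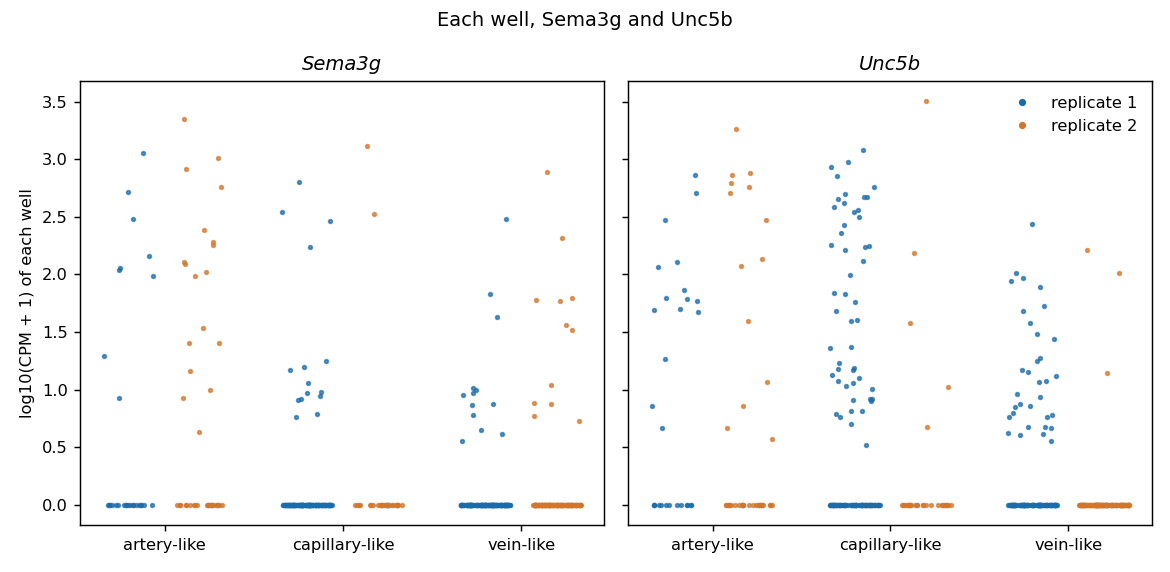
CPM of *Sema3g* and *Unc5b* in each well, as log10(CPM + 1) on the y axis, by class on the x axis and replicate by colour; each point is a well and points at 0 are wells without a read. Wells with at least 100 CPM (above 2 on the axis) number 6 and 10 in the artery-like class and 1 and 2 in the vein-like class for *Sema3g*, and the highest of the artery-like, capillary-like and vein-like wells for *Unc5b* is the capillary-like well of replicate 2 with 3186 CPM.

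*Robo4* (ENSMUSG00000032125, chromosome 9 from 37401897 to 37415115, plus strand) had the highest level per kilobase of exon in every class. Artery-like wells of replicates 1 and 2 held 502 and 701 CPM, capillary-like wells 802 and 423 CPM and vein-like wells 743 and 769 CPM. Artery-like wells were between 467 and 773 CPM on the 4 plates and vein-like wells between 707 and 853 CPM, so these classes overlapped even though the artery-like value was the lower on each plate. With the 300 CPM limit this direction turned, with 696 and 701 CPM in artery-like wells against 661 and 694 CPM in vein-like wells, and with the weighted graph it turned in replicate 1, with 739.8 against 711 CPM. Capillary-like wells of replicate 2 were at 1121 CPM on plate A (8 wells) and 180.4 CPM on plate B (23 wells). Without the highest well of each set, artery-like wells were at 429 and 385 CPM, capillary-like wells at 778 and 199 CPM and vein-like wells at 723 and 709 CPM. A read was found in 28 of 28, 119 of 120 and 122 of 122 wells of replicate 1, and in 27 of 40 (67.5%, 95% interval 50.9 to 81.4), 16 of 31 (51.6%, 33.1 to 69.8) and 103 of 117 (88.0%, 80.7 to 93.3) wells of replicate 2, for artery-like, capillary-like and vein-like wells. Shares near the full number of wells in replicate 1 say little of expression, because a read was also present in 8 of 8 mural wells there, at 44.6 CPM. In replicate 2 mural wells had a read in 15 of 38, at 4.01 CPM. Lymphatic wells held 168 and 165 CPM, below each BEC class of the same replicate. By edgeR the log2 fold changes were -0.19 ± 0.33 between artery-like and vein-like wells (adjusted p = 0.998) and -0.08 ± 0.29 for capillary-like wells (adjusted p = 0.983), with the smallest standard errors among the 8 genes tested. Reads of *Robo4* and *Unc5b* occurred in the same well for 11 of 40 artery-like wells of replicate 2, 3 of 31 capillary-like wells and 3 of 117 vein-like wells, and *Unc5b* without *Robo4* occurred in 3, 2 and 0.

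The receptor gene *Plxnd1* (ENSMUSG00000030123, chromosome 6, minus strand) was present in all classes. Artery-like wells had 169 and 196 CPM in replicates 1 and 2, capillary-like wells 227 and 180.2 CPM and vein-like wells 166 and 211 CPM, and all 12 values by plate lay between 121 and 273 CPM. Without the highest well of each set, capillary-like wells were at 220 and 109 CPM. Artery-like wells were then at 149 and 148 CPM and vein-like wells at 160 and 194 CPM. The log2 fold change between artery-like and vein-like wells was 0.08 ± 0.43 and that of capillary-like wells 0.33 ± 0.37. The gene was also read in mural wells, with 66.2 and 300.2 CPM, and was lower in lymphatic wells, with 22.6 and 76.7 CPM. Wells with reads of both *Sema3g* and *Plxnd1* numbered 5 of 28 and 12 of 40 in the artery-like class and 12 of 122 and 5 of 117 in the vein-like class.

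*Plxna2* (ENSMUSG00000026640, chromosome 1, plus strand) was lower in artery-like than in vein-like wells of both replicates, with 48.0 and 71.7 CPM against 84.2 and 125 CPM, while capillary-like wells had 145 and 56.0 CPM. In replicate 1 this direction turned with the weighted graph, with 118 CPM in artery-like against 69.3 CPM in vein-like wells, and with the 300 CPM limit, with 93.3 against 63.2 CPM. Artery-like plates ranged from 29.4 to 90.3 CPM and vein-like plates from 77.1 to 159 CPM, so the classes overlapped. Without the highest well of each set, artery-like wells were at 39.8 and 38.5 CPM, capillary-like wells at 133 and 30.7 CPM and vein-like wells at 77.0 and 113 CPM. The log2 fold change in the sums was -0.37 ± 0.65 between artery-like and vein-like wells and 0.55 ± 0.55 for capillary-like wells. Mural wells were at 2.31 and 0.723 CPM and lymphatic wells at 51.2 and 47.7 CPM. The annotation places 4 other gene models within *Plxna2* on the same strand, whose reads could be split from it, with at most 1580 reads each over all wells against 18668 for the gene. It also places *Gm19972*, with 5664 bases of exon, within *Unc5b* on the same strand, but this model is not among the genes counted.

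**Figure D4:**
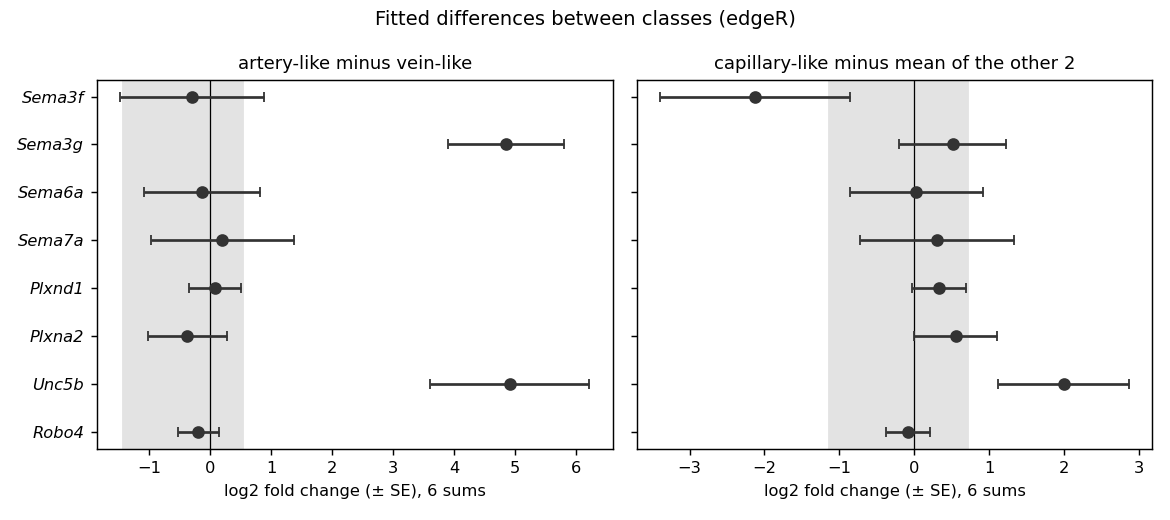
Fitted log2 fold changes with standard errors (x axis) of the 8 genes tested (y axis), for artery-like minus vein-like wells on the left and capillary-like wells minus the mean of the other classes on the right; the grey band holds the central 50% of all 15240 genes. *Sema3g* (4.84) and *Unc5b* (4.91) lie outside the band on the left, and the other 6 genes lie between -0.37 and 0.20.

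Over the 8 genes tested, the median log2 fold change between artery-like and vein-like wells was -0.03, with 4 genes above and 4 below 0. The median of all 15240 genes was -0.18, and their central 50% lay between -1.42 and 0.54. For capillary-like wells the median was 0.32, with 6 of 8 above 0, against -0.08 over all genes. In that comparison 0 of 8 genes passed the threshold (0% of all genes) and 0 of 8 had an unadjusted p under 0.05 (3.83% of all genes). DESeq2's Wald test also called 0 of 8, against 1.51%. For any difference between the 3 classes, 0 of 8 passed, against 0.00656% of all genes, which is the single gene *Selp*, a vein marker that had also served to name the clusters. The spread between sums of a class was wide, with a common dispersion of 0.822, so a gene short of the threshold is not shown to be even.

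Set per kilobase of exon, which allows levels of different genes to be compared, *Robo4* led in each class, with 113 ± 26.6, 116 ± 50.5 and 143 ± 3.50 CPM per kb in artery-like, capillary-like and vein-like wells (SD, n = 2 replicates). In artery-like wells *Sema3g* (25.7 ± 9.15), *Plxnd1* (24.99 ± 2.57), *Sema3f* (19.1 ± 13.9), *Unc5b* (17.5 ± 7.05) and *Sema7a* (16.0 ± 16.2) followed and did not differ from their neighbours beyond their spread. *Sema6a* (8.90 ± 7.32), *Plxna2* (3.49 ± 0.975) and *Sema3c* (1.45 ± 2.05) came next, and the replicates of *Sema6a* overlapped those of *Sema7a*, *Unc5b* and *Sema3f*. In capillary-like wells *Plxnd1* (27.9 ± 4.50) stood above *Unc5b* (15.4 ± 2.98), *Sema6a* (11.4 ± 11.03), *Sema7a* (8.14 ± 3.12), *Sema3g* (7.24 ± 6.24), *Plxna2* (5.85 ± 3.65) and *Sema3f* (5.17 ± 4.26 CPM per kb). In vein-like wells the order was *Plxnd1* (25.8 ± 4.39), *Sema3f* (19.9 ± 7.14), *Sema7a* (16.3 ± 19.0), *Sema6a* (13.0 ± 0.519) and *Plxna2* (6.08 ± 1.66), with *Sema3g* (1.61 ± 1.06), *Unc5b* (0.839 ± 0.651) and *Sema3c* (0.0488 ± 0.0397 CPM per kb) at the end. *Sema3g* and *Unc5b* were thus the genes that lost most places in the order between artery-like and vein-like wells.

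A list of 57 further guidance genes (other semaphorins, plexins and neuropilins, the netrin and Slit-Robo sides and intracellular partners) was set beside the 9. Of these, 56 were found and 35 had enough counts, and 0 of 35 passed the threshold in either comparison (0% of all genes in each). At an unadjusted p under 0.05, 0 were higher and 3 lower in artery-like than in vein-like wells, against 5.2% of all genes in either direction. In capillary-like wells 2 were higher and 1 lower, against 3.83% of all genes in either direction. Both artery-like sums were above both vein-like sums for 2 of 35, against 14.4% of all genes, and below them for 17 of 35, against 24%. The median log2 fold change of the 35 was -1.55 between artery-like and vein-like wells (all genes -0.18) and 0.06 for capillary-like wells (all genes -0.08). The artery-like sums held 4183562 and 6039440 reads and the vein-like sums 25039249 and 23368019 reads, and the part of this depth in these values was not tested. Of the list, 5 reached 100 CPM in a class in both replicates, and 4 of them are described. *Nrp1*, the co-receptor of VEGF-A and class 3 semaphorins, was highest in capillary-like wells of each replicate, with 1270.5 and 748 CPM against 691 and 342 CPM in artery-like and 391 and 409 CPM in vein-like wells (log2 fold change of capillary-like wells 1.31 ± 0.31, unadjusted p = 0.00411, adjusted p = 0.943, edgeR). *Nrp2*, through which *Sema3f* and *Sema3g* products act, had 31.8 and 10.3 CPM in artery-like wells and 109 and 184 CPM in vein-like wells (-2.82 ± 1.03, unadjusted p = 0.0299, adjusted p = 0.892, edgeR), and 139 and 421 CPM in lymphatic wells. *Srgap2*, a GTPase-activating protein of the Slit-Robo side, had 42.3 and 43.2 CPM in artery-like wells against 120.3 and 204 CPM in capillary-like and 125 and 169.9 CPM in vein-like wells. Its log2 fold change by edgeR was -1.46 ± 0.58 between artery-like and vein-like wells (unadjusted p = 0.0417, adjusted p = 0.892) and 1.62 ± 0.49 for capillary-like wells (unadjusted p = 0.0135, adjusted p = 0.943). *Dpysl2*, an intracellular mediator of semaphorin signals, lay between 139.9 and 239.8 CPM in all 6 sets.

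The genes most alike in pattern were sought by Pearson's r of log2(CPM + 1) over 12 sums of plate and class, among 7403 protein-coding genes. These 12 points share libraries and depth, and 5 of them held only 7 to 23 wells. For *Robo4* they were *Mef2d* (r = 0.95) and *Foxn2* (0.95), for *Plxnd1* *Trp53bp1* (0.94) and *Tep1* (0.89), and for *Plxna2* *Rasal2* (0.94) and *Scarb2* (0.93). For *Sema3f* they were *AI467606* (0.96) and *Seh1l* (0.94), and for *Sema6a* *Eif4enif1* (0.97) and *Pex2* (0.96). *Sema3g* was most like *Acly* (0.87) and *Fam160b1* (0.86), *Sema7a* most like *Syne1* (0.83) and *Ranbp2* (0.81), and *Unc5b* most like *Gm21970* (0.92) and *Ssu72* (0.87). For *Sema3c* the closest were *Chad* (0.99) and *Fmod* (0.96), both genes of extracellular matrix proteins, a likeness that rests on the 1 plate whose artery-like wells held *Sema3c*. Among the 9 genes, the closest pairs were *Sema3f* with *Sema6a* (r = 0.78) and *Plxna2* with *Plxnd1* (0.77).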

How the data were processed

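Single BECs were profiled in 4 plates (2 replicates). Per the labels and the study's methods, the authors aligned single 50-bp reads with TopHat2 2.1.1 to mm10 (GRCm38), removed duplicates with SAMtools 0.1.18 and deposited raw read counts per gene and well made with Subread 1.4.6-p5. The annotation release was not given in the sources used here. Duplicate removal without molecular identifiers can compress high counts.

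From these counts, wells with at least 600 counts, 500 to 8000 genes, at least 2 of 3 BEC genes and under 100 CPM of each of 5 non-BEC genes were kept. No doublet caller was run. Size factors came from scran 1.30.0. The 1000 most variable genes without guidance genes, scaled within each replicate, gave 15 principal components and a graph of 15 neighbours, clustered with leidenalg 0.10.2. A cluster was named by the class with most markers at least 1.25-fold higher than in other wells. Whether graph edges carry weights had not been set, so both were run, and the unweighted graph was chosen from cluster sizes and markers before guidance values were read. The weighted graph gave 272 artery-like wells in place of 68.

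Raw counts were summed per class and replicate. A gene entered the fit when 2 of the 6 sums held 10 or more counts. The fit was made in edgeR 4.0.16 by the quasi-likelihood method, with TMM factors, a replicate block, Benjamini-Hochberg adjustment, a threshold of 0.05 and 2 residual degrees of freedom. Standard errors given with edgeR values were derived as the absolute log2 fold change divided by the square root of the F statistic. All classes within a replicate shared their mice, hence the block. Deviations of same-numbered sums from their class means correlated at 0.115, 0.151 and 0.106. DESeq2 1.42.0 and limma 3.58.1 were alternatives, as were other filters, plates, graphs and thinning. Shares carry exact (Clopper-Pearson) 95% intervals, and a count of 0 was read against 3 wells. Test scripts were tested on simulated data. The genes named were the 9 members, listed guidance genes of at least 100 CPM in a class of both replicates, and the 2 most alike protein-coding genes per member with a mean of at least 20 CPM. Promoter windows are RefSeq's (GRCm38.p6). The members, the lists and the 100 CPM limit were chosen with earlier results of these data known. The values of 1 listed gene that met this rule are not reported here.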

Additional observations from a re-analysis of the deposited data

Results flagged for a closer look

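The 4 plate means of each gene and class were searched for a plate far from the other 3, in 27 sets. Of these, 3 stood apart. Chance flags about 1 in 20 such sets, a rate that does not hold for the 2 *Sema3c* sets, where the other plates were at 0. *Sema3c* in artery-like wells was at 27.6 CPM on plate B of replicate 1 and at 0 on the other plates, from 1 well of 576 CPM. *Sema3c* in capillary-like wells was at 0.114 CPM on plate B of replicate 1, from a single read, and at 0 elsewhere. *Sema7a* in artery-like wells was at 256 CPM on plate A of replicate 2, where 1 of 13 wells held 2637 CPM, and the next plate was at 28.2 CPM.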

How the results depend on the processing

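The limits are the 2 replicates, the wide spread between sums, the depth of the artery-like and capillary-like sums and the single wells that carry some levels. The log2 fold change of *Sema3g* and *Unc5b* between artery-like and vein-like wells was above 0 in 17 of 17 alternatives, as was that of *Unc5b* for capillary-like wells. Of the alternative log2 fold changes, 201 kept their direction and side of the threshold, 62 turned direction, 7 values from a single replicate moved by more than their error and 2 passed the threshold by DESeq2 but not by edgeR. Of the mean levels, 195 stayed within the spread between replicates and 75 moved beyond it, and of the shares of wells 78 stayed and 30 moved. With the 10 CPM limit, replicate 1 held 1 artery-like, 7 capillary-like and 6 vein-like wells, so values of that setting rest on a sum of 1 well. The weighted graph and the highest-well step were added after seeing the data, the former when only cluster sizes and markers had been read.

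For artery-like against vein-like wells, the count of genes called was 0 by edgeR and 311 with DESeq2's Wald test, 34 without the low-count filter, 1 without the replicate block, 6 with sums per plate, 20 from plates A, 1 at the next resolution and 10 after thinning. For capillary-like wells it was 0, and 230 with DESeq2's Wald test, 23 without the filter, 2 with sums per plate and 39 from plates A. For any difference it was 1, and 57 without the filter, 2 without the block, 18 with sums per plate, 0 with limma, 61 from plates A, 0 from plates B, 4 with the 10 CPM limit, 0 with classes from marker scores, 15 after thinning and 0 with the weighted graph. The cause was not tested. The replicate block changed no other call.

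Artery-like minus vein-like values that turned direction were as follows. Without the replicate block, *Sema7a* was at -0.019. With sums per plate, *Sema7a* was at -0.25 and *Plxnd1* at -0.30. With limma, *Plxnd1* was at -0.037. From plates A, *Plxnd1* was at -0.53. From plates B, *Sema3f* was at 0.092, *Sema6a* at 0.0336, *Sema7a* at -2.67 and *Plxna2* at 0.21. With the 10 CPM limit, *Sema7a* was at -1.38 and *Plxnd1* at -2.07. With the 300 CPM limit, *Sema6a* was at 0.0335, *Plxnd1* at -0.26 and *Robo4* at 0.15. With classes from marker scores, *Plxnd1* was at -0.27. At the next resolution, *Plxnd1* was at -0.30 and *Plxna2* at 0.12. With the weighted graph, *Sema6a* was at 0.41, *Plxnd1* at -0.17 and *Plxna2* at 0.38. Without the highest well, *Sema7a* was at -0.29 and *Plxnd1* at -0.17. Without the low-count filter, *Plxnd1* was at -0.012. Capillary-like values that turned direction were as follows. Without the replicate block, *Sema7a* was at -0.13. With sums per plate, *Sema3g* was at -0.56, *Sema6a* at -0.14 and *Robo4* at 0.10. With limma, *Sema3g* was at -0.10, *Sema6a* at -0.22 and *Sema7a* at -0.38. From plates A, *Sema3g* was at -3.43 and *Robo4* at 0.46. From plates B, *Sema6a* was at -0.43 and *Sema7a* at -0.22. With the 10 CPM limit, *Sema3f* was at 0.0054, *Plxnd1* at -0.58 and *Robo4* at 1.32. With the 300 CPM limit, *Sema6a* was at -0.44, *Sema7a* at -0.10, *Plxna2* at -0.21 and *Robo4* at 0.16. With classes from marker scores, *Sema3g* was at -0.16 and *Robo4* at 0.48. At the next resolution, *Sema7a* was at -0.23 and *Robo4* at 0.14. After thinning, *Sema7a* was at -0.33 and *Robo4* at 0.021. With the weighted graph, *Sema6a* was at -0.64, *Sema7a* at -0.33 and *Robo4* at 0.11. Without the highest well, *Sema6a* was at -0.037 and *Sema7a* at -0.30. Each replicate by itself gave a range between artery-like and vein-like wells of -1.44 to 0.31 for *Sema6a*, -0.39 to 0.71 for *Sema7a* and -0.094 to -0.047 for *Plxnd1*. Each replicate by itself gave a range for capillary-like wells of -0.36 to 1.14 for *Sema3g*, -1.78 to 1.34 for *Sema6a*, -0.81 to 1.14 for *Sema7a*, -0.057 to 0.57 for *Plxnd1*, -0.14 to 1.08 for *Plxna2* and -0.68 to 0.34 for *Robo4*.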
